A study of Mus musculus with 9 samples.

Results

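Of the 9 RNA-seq libraries of the series, 6 are controls, regulatory T (Treg) cells in which the transcription factors Thpok and LRF are both present, and they come in 2 kinds of 3 libraries each. The genetic controls were sorted as YFP+MHCII- cells from WT Foxp3 Cre-YFP/X female mice. The animal controls were sorted as YFP-MHCII-CD25hi cells from LRFffThpokff Foxp3 Cre-YFP/X female mice, the same mice that gave the 3 libraries of Thpok- and LRF-deficient YFP+MHCII- cells. All came from spleen and lymph node of a C56Bl6/129 mix background, all mice carried 1 Foxp3 Cre-YFP allele, and no age is given in these sources. The members were chosen by column, .Ctrl for the genetic and Thpok_LRF_plus for the animal controls, and genes were counted only where their mean over the 6 columns reached 10 CPM (read counts scaled to a common library total) on the log2 scale. That left 7635 of 13698 genes (55.7%). Just outside that floor lay Rbks, with a geometric mean of 9.999 CPM.

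Treg cells are CD4 T cells that restrain other immune cells, and Foxp3 is the transcription factor that defines them. Foxp3 lies on the X chromosome. In a female with 1 Foxp3 Cre-YFP allele and 1 unmodified allele, X inactivation leaves each Treg cell with a single active Foxp3 allele, so YFP and Cre recombinase appear in only some of the cells. Cre removes floxed (ff) gene segments, which is how Thpok (gene Zbtb7b) and LRF (gene Zbtb7a) are lost in the YFP+ cells of the floxed mice and kept in their YFP- neighbours. The YFP- cells use the unmodified allele, and CD25, the IL-2 receptor alpha chain encoded by Il2ra, takes the place of YFP as the Treg gate. The 2 kinds of control therefore differ at once in the active Foxp3 allele, in Cre and YFP, and in the gate. They also differ in the mice, with the floxed genes and the deficient Treg cells those mice hold. On the mixed background the mice can differ in other parts of the genome too, which was not tested. Between the controls these differences cannot be told apart. The deficient libraries share the allele and gate of the genetic controls and the mice of the animal controls. Their levels are given beside the controls for some of the named genes only, without a test. The construction of the Foxp3 Cre-YFP allele is not described in these sources.

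The deposited values are log2 CPM and hold no read counts, so the depth behind each value is unknown. The numbers 142114, 232614 and 432614 mark 3 mice that each gave an animal control and a deficient library. Nothing states whether the genetic controls 124, 8619 and 8800 were single mice or pools, so p-values measure the spread between these libraries. Across the 7635 genes, correlations between libraries ran from 0.826 to 0.866 within the genetic controls, from 0.796 to 0.835 within the animal controls and from 0.776 to 0.861 between the 2 kinds. Correlations of a deficient library with a control library ran from 0.696 to 0.778.

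The transcripts that check the labels were compared first. Zbtb7b, the Thpok gene, was at 92.1, 103 and 149 CPM for genetic and 76.9, 106 and 98.6 CPM for animal controls, against 0.147 to 0.366 CPM in the deficient cells. The control groups overlapped, and the log2 difference, always given here as genetic minus animal control with its standard error, was 0.28 ± 0.52. Zbtb7a was at 69.5, 89.8 and 111 CPM in the genetic and 128, 90.6 and 116 CPM in the animal controls (-0.32 ± 0.25). Its 78.8 to 103 CPM in the deficient cells overlapped both, so the gene-level value of Zbtb7a checks no label. Cd4 was at 678 to 1026 CPM in genetic and 819.6 to 988 CPM in animal controls, and Cd8a at 13.2 to 27.2 and 18.7 to 50.9 CPM, with overlapping groups for both. Il2ra, which gates the animal controls only, was at 788, 584 and 657 CPM in the genetic and 800.4, 738 and 771 CPM in the animal controls. The groups overlapped, and the difference of -0.20 ± 0.14 had a 95% interval of -0.51 to 0.11.

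Few genes were called as different between the 2 kinds of control. With limma across all genes, and adjusted p-values from Benjamini-Hochberg at a false discovery rate (FDR) under 0.05, 4 of the 7635 genes were called (0.0524%). All 4 were lower in the genetic controls (0.0524%), and 0 were called higher (0%). They were Foxp3, Mtmr9, Gm8730 and Gm9625, the last pair being predicted genes that the naming rule leaves out and that were chosen after their values were seen. Over all 13698 genes there were 5 calls (0.0365%), the fifth being Xkr6, under the floor. An unadjusted p under 0.05 was reached by 511 genes (6.69%), 287 higher and 224 lower in the genetic controls. The 3 libraries of each kind did not overlap for 948 genes (12.4%), 448 with the genetic controls higher (5.87%) and 500 with the animal controls higher (6.55%).

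**Figure D1:**
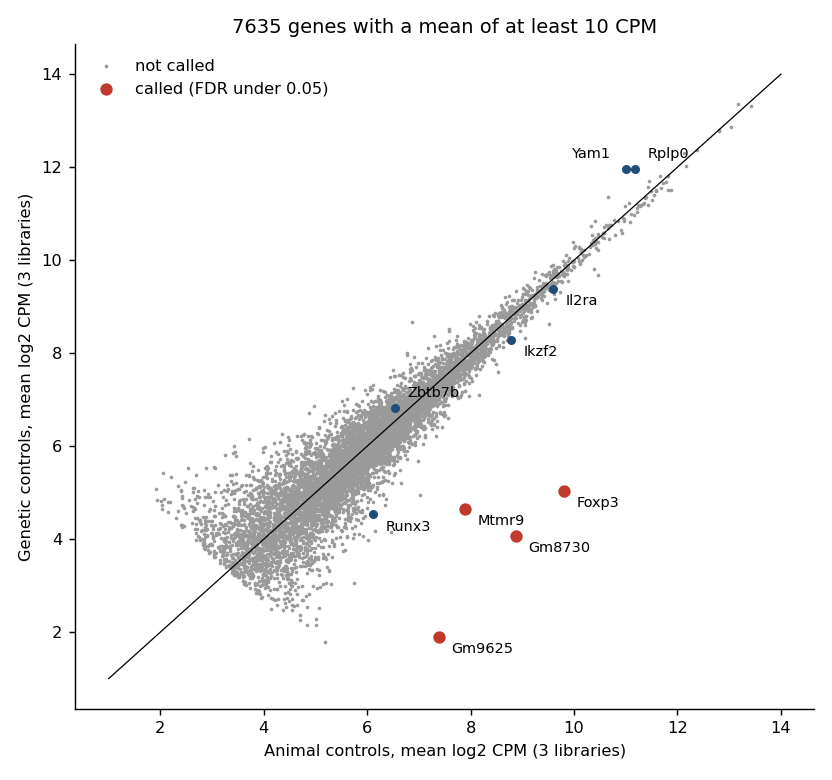
Mean log2 CPM of the 7635 genes counted in the 3 animal controls (x axis) and the 3 genetic controls (y axis), 1 point a gene, with the line of equal means. Red points are the 4 genes called, all below the line, and blue points are named genes that were not called; the cloud widens toward low levels.

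The few calls do not show that the other genes were alike, since the precision depended on the level. The median standard error of the log2 difference was 0.39 over the 7635 genes, 0.22 for the 2122 genes whose mean reached 100 CPM and 0.47 for the 5513 between 10 and 100 CPM. The 95% interval lay within a log2 difference of 1 in either direction for 82.8% of the first and 19.5% of the second. The absolute difference was over 1 for 652 genes (8.54%). The median difference was -0.01. An exact permutation test of 3 libraries against 3 cannot go below p = 0.1, so single-gene statements rest on the model across all genes.

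Foxp3 (chrX:7573644-7595245 on GRCm38, plus strand) gave the lowest p of all genes. It was at 38.1, 36.9 and 24.8 CPM in genetic controls and 961, 754 and 999.7 CPM in animal controls. The deficient cells, which use the same Foxp3 Cre-YFP allele as the genetic controls, were at 35.9, 34.1 and 26.5 CPM. Means were 33.3 ± 7.38 and 905 ± 132 CPM (SD, n = 3 each). Every YFP+ library thus lay under every YFP- library, with or without the 2 factors, and the deficient range overlapped that of the genetic controls. The difference between the controls was -4.78 ± 0.25 (limma, adjusted p = 5.55e-05), a 27.5-fold lower fitted level in the genetic controls. The files measure RNA and not FOXP3 protein, and these sources do not give how reads from the altered allele were assigned to the gene.

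No other gene around Foxp3 was called. The 20 others at or above the floor within 1 Mb had 0 calls. Their median difference was -0.12, with 7 positive and 13 negative. Within 5 Mb the median over 25 genes was -0.16, again with 0 called, and the median over all 227 genes of the X chromosome at or above the floor was -0.05. The lowest of the neighbours was Ppp1r3fos (chrX:7573600-7581016), which overlaps Foxp3 in the annotation. It was at 3.37, 11.03 and 4.55 CPM for genetic and 28.02, 20.4 and 22.2 CPM for animal controls (-2.08 ± 0.58, limma, adjusted p = 0.476, not called), and at 18.8, 24.5 and 13.04 CPM in the deficient cells. The deficient range lay above the genetic controls and overlapped the animal controls. Ppp1r3fos reached the floor through the animal controls alone, with a mean of 6.32 CPM in the genetic controls. The counting is not stated to use strand, so reads of these overlapping genes cannot be told apart. No gene near Zbtb7b or Zbtb7a was called either, among 46 and 47 others within 1 Mb, with medians of -0.07 and -0.04.

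**Figure D2:**
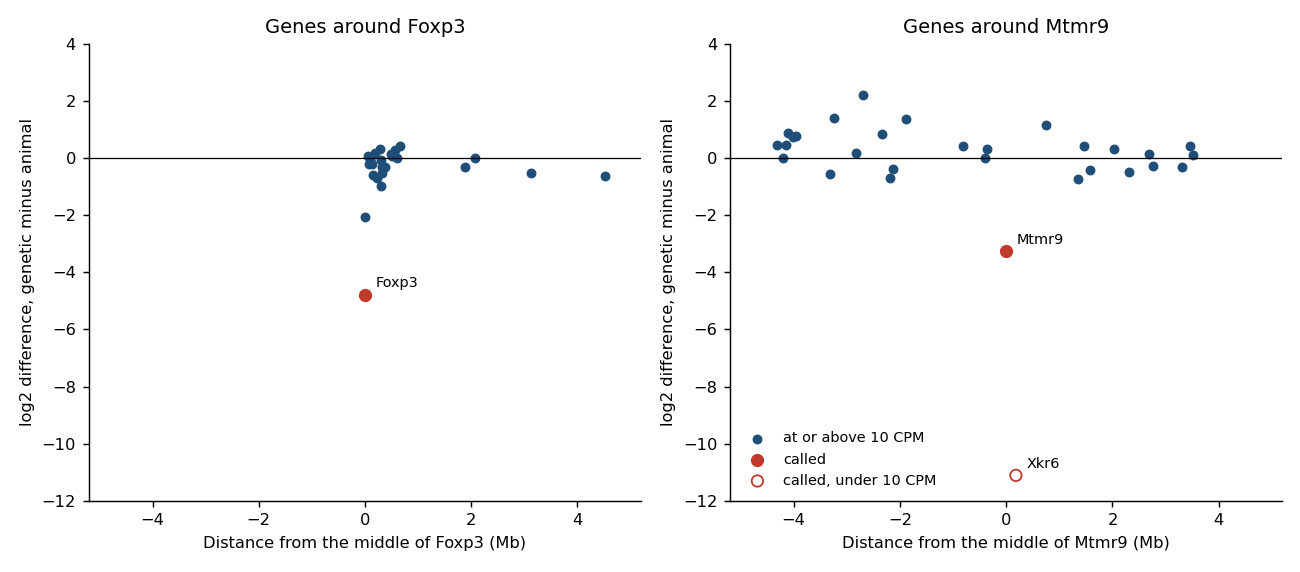
Log2 difference (genetic minus animal controls, y axis) of genes against their distance in Mb from the middle of Foxp3 (left) and Mtmr9 (right). Red marks called genes, the open circle being Xkr6, which is under the 10 CPM floor and whose difference depends on the lowest value of the table. Only Foxp3, Mtmr9 and Xkr6 are called in these windows.

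Among genes that mark Treg cells, Foxp3 stood alone as a call. Of 34 Treg signature genes at or above the floor, 0 were called higher and 1 lower, and that 1 was Foxp3 itself. Of the 34, 10 had a positive and 24 a negative difference, and the median was -0.20, beside -0.01 over all genes. Over the alternative settings, including fits without 1 library, the list median ran from -0.33, without genetic control 124, to -0.16. In 8 of the 34 all animal controls lay above all genetic controls, and in 0 the reverse held, where over all genes these shares were 6.55% and 5.87%. For 18 of the 34 the 95% interval lay within 1 in either direction. Where 2 ranges stand side by side from here on, the genetic controls come first.

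Ikzf2, which encodes the Ikaros-family factor Helios, was at 321, 317 and 295 CPM in the genetic and 420.00, 516 and 385 CPM in the animal controls, without overlap (-0.49 ± 0.16, 95% interval -0.84 to -0.14, limma, adjusted p = 0.575). Nrp1, a surface receptor found on thymus-derived Treg cells, was at 429, 382 and 383 CPM in genetic and 572, 782 and 879 CPM in animal controls, also without overlap (-0.88 ± 0.27, limma, adjusted p = 0.561). Neither was called, and both were higher in every animal control than in any genetic control. Tnfrsf9, the co-stimulatory receptor 4-1BB, had the same order at 109 to 161 and 189.9 to 257 CPM (-0.65 ± 0.20, limma, adjusted p = 0.544). Tnfrsf18, the receptor GITR, was at 195 to 267 and 268 to 330.4 CPM (-0.35 ± 0.17). Capg, an actin-capping protein, was at 388 to 519.98 and 501 to 625 CPM with overlap (-0.41 ± 0.16).

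Ctla4, an inhibitory receptor through which Treg cells act, was at 50.3, 50.3 and 57.4 CPM in the genetic and 41.8, 36.6 and 58.2 CPM in the animal controls. These overlapped, with a difference of 0.24 ± 0.29 and a 95% interval of -0.42 to 0.89. Nt5e, the ectoenzyme CD73, overlapped at 284 to 391.9 and 373 to 465 CPM (-0.31 ± 0.17). Tgfb1, a suppressive cytokine, did not overlap at 95.3 to 122 and 125 to 182 CPM, but its difference of -0.41 ± 0.22 did not pass the test. Over the list of suppressive mediators and ectoenzymes, 15 members at or above the floor had 0 calls, 3 positive and 12 negative differences and a median of -0.18, which lay at -0.36 without genetic control 124 to -0.09 without genetic control 8800. Some members varied widely between libraries of 1 kind. Klrg1, a receptor of effector Treg cells, lay at 3.56 to 44.2 CPM in the genetic and 28.4 to 65.8 CPM in the animal controls, and the phosphatase gene Dusp4 at 14.6 to 44.2 and 0.157 to 23.3 CPM.

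**Figure D3:**
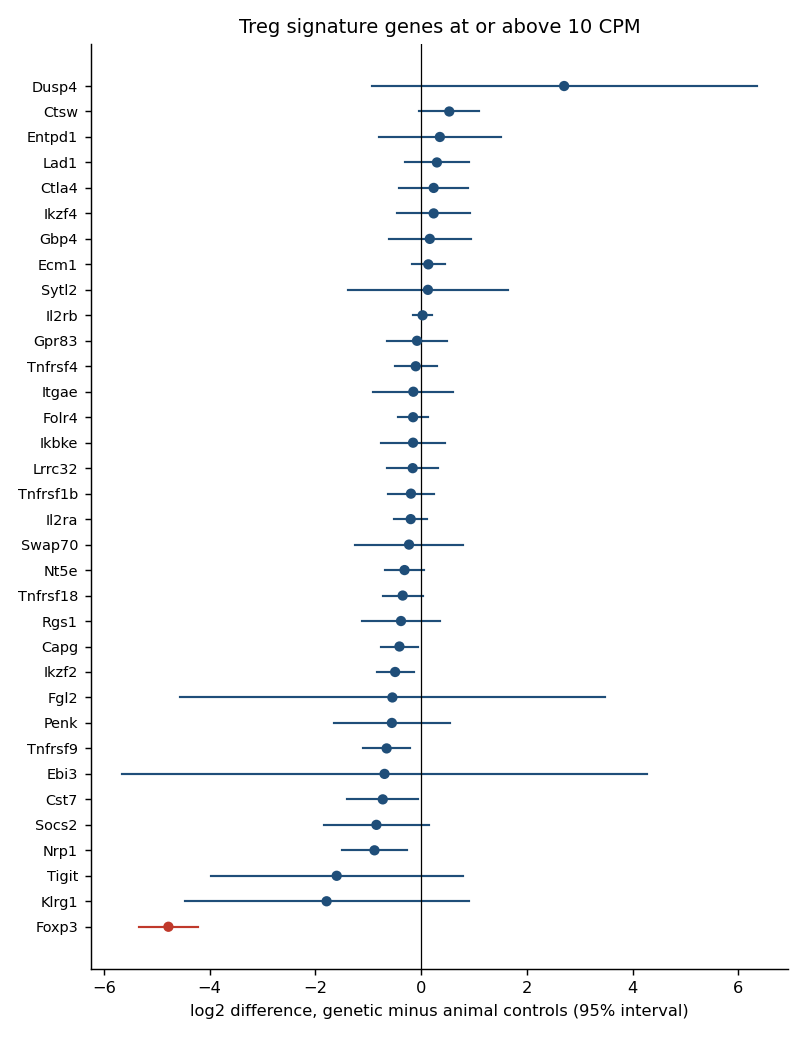
Log2 difference (genetic minus animal controls, x axis) and 95% interval for the 34 Treg signature genes at or above 10 CPM, ordered by difference. Foxp3 (red) is called and lies at -4.78, the others are not called, and the intervals of Il2ra and Ctla4 include 0.

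No effector or resting Treg gene was called. Effector Treg genes, which mark recently activated Treg cells, had 36 members at or above the floor, with 8 positive and 28 negative differences and a median of -0.35. Without single libraries that median ran from -0.43 to -0.22, the latter without animal control 432614. In 10 of the 36 all animal controls were higher and in 1 all genetic controls were, beside 6.55% and 5.87% of all genes. That 1 was Ly6a, a surface antigen also called Sca-1, at 283, 337 and 280.3 CPM in the genetic and 141, 195 and 232 CPM in the animal controls (0.69 ± 0.24, limma, adjusted p = 0.674). Icos, a co-stimulatory receptor of effector cells, was at 63.6, 56.7 and 58.9 CPM in genetic and 86.4, 73.5 and 94.9 CPM in animal controls (-0.50 ± 0.30), and S100a10, a calcium-binding protein gene, at 208 to 258 and 269 to 351 CPM (-0.40 ± 0.16). Each lay lower in every genetic control.

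Genes of central or resting Treg and naive T cells had 26 members at or above the floor, with 20 positive and 6 negative differences and a median of 0.17. Without single libraries it ran from 0.12 to 0.28, the latter without genetic control 8800. The difference between the effector and resting lists was not tested. In 7 of the 26 resting genes all genetic controls were higher and in 1 all animal controls were, beside 5.87% and 6.55% of all genes. S1pr1, the receptor that guides exit from lymphoid tissue, was at 829.9, 777 and 759 CPM in genetic and 558, 635 and 595 CPM in animal controls (0.40 ± 0.10, limma, adjusted p = 0.369). The groups did not overlap and the gene was not called. Genes known to be lower in Treg than in conventional CD4 T cells had 22 members, 15 positive and 7 negative, with 0 calls and a median of 0.23 (0.15 without genetic control 124). Satb1, a chromatin organizer of that list, was at 566 to 613 and 301 to 512 CPM (0.55 ± 0.22), while Il7r, the IL-7 receptor alpha chain, lay the other way at 256 to 447 and 412 to 680.4 CPM with overlap (-0.74 ± 0.37).

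Partners of Foxp3 and chromatin factors had 34 members at or above the floor, 21 positive and 13 negative, with 0 calls and a median of 0.07. Bach2, a repressor that holds T cells in a resting state, was at 80.9, 71.8 and 88.7 CPM in the genetic and 40.9, 40.1 and 34.6 CPM in the animal controls (1.06 ± 0.39, limma, adjusted p = 0.684). Hdac7, a histone deacetylase, was at 85.2 to 119.6 and 134 to 281 CPM (-0.84 ± 0.28). Dnmt3a, a DNA methyltransferase, was at 117 to 194 and 92.01 to 108 CPM (0.56 ± 0.21). All 3 genes had groups without overlap, and none passed the test. The IL-2 receptor and STAT5 pathway, which sustains Foxp3 and Treg survival, had 29 members, 14 positive and 15 negative, with a median of -0.02 and 21 intervals within 1 in either direction. Il2rg, the shared gamma chain, was at 930.00 to 1031 and 1019 to 1252 CPM (-0.19 ± 0.09). Socs2, a feedback inhibitor induced by STAT5, was at 45.3 to 55.00 and 70.7 to 111 CPM without overlap (-0.85 ± 0.45, limma, adjusted p = 0.788).

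Genes of T cell receptor (TCR) signalling held no call. The TCR complex and proximal signalling list had 28 members, 26 of them with intervals within 1 in either direction, 0 calls and a median of 0.04. Its member with the lowest p was Cd3e, a CD3 chain of the receptor complex, at 971, 924 and 824 CPM in the genetic and 1378, 1241 and 1408 CPM in the animal controls. All animal controls were higher, and so were the deficient cells at 1260.2, 1307 and 1197 CPM, but the difference of -0.57 ± 0.09 missed the threshold (limma, adjusted p = 0.0718). Immediate early genes, which TCR signals switch on, had 30 members, 9 positive and 21 negative, with 0 calls and a median of -0.19. That median was -0.005 without genetic control 8800. Cd83, an activation antigen of this list, was at 208, 182 and 188 CPM in genetic and 308, 399 and 408 CPM in animal controls (-0.94 ± 0.26, limma, adjusted p = 0.459), without overlap. Junb, a subunit of the factor AP-1, was at 255 to 272 and 309 to 359.5 CPM (-0.29 ± 0.12), and Zfp36l1, an RNA-binding protein of the early response, at 45.4 to 51.9 and 65.96 to 86.4 CPM (-0.60 ± 0.24).

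The lineage genes that Thpok and Runx factors set against each other included 1 with groups far apart. Runx3, a factor of the CD8 lineage, was at 17.9, 19.7 and 34.9 CPM in genetic controls, 91.7, 53.9 and 66.1 CPM in animal controls and 101, 90.3 and 97.1 CPM in the deficient cells. Its control groups did not overlap, and the difference of -1.57 ± 0.33 was not called (limma, adjusted p = 0.232). Each deficient library lay above the animal control of its mouse. Cd8b1, the CD8 beta chain, overlapped at 15.1 to 57.8 and 29.5 to 86.4 CPM (-0.61 ± 0.53). The CD8 lineage and cytotoxic list had 9 members with a median of -0.15 and the CD4 lineage list 14 with a median of 0.13, each with 0 calls. The CD8 median ran from -0.44 without genetic control 8619 to 0.03 without genetic control 8800.

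Interferon response genes, which many cells switch on together, had 41 members, 26 positive and 15 negative, with 0 calls and a median of 0.21. That median was 0.07 without genetic control 124 and 0.08 without animal control 432614. In 7 of the 41 all genetic controls were higher and in 2 all animal controls were, beside 5.87% and 6.55% of all genes. Slfn1, a Schlafen-family gene, was at 189, 179 and 199 CPM in the genetic and 93.5, 117 and 98.9 CPM in the animal controls (0.88 ± 0.19, limma, adjusted p = 0.232). Slfn2 of the same family, which is not on this list, was at 946, 896 and 743 CPM in genetic and 611, 582 and 635 CPM in animal controls (0.49 ± 0.10, limma, adjusted p = 0.232). Slfn5 was at 69.8 to 177 and 23.4 to 46.03 CPM (1.49 ± 0.47). Slfn2 was named for a low p among genes without overlap, and Slfn1 by that rule and as a list member. These 3 Schlafen genes were higher in every genetic control, without a call. Irf7, an amplifier of the interferon response, had the same order at 115 to 167 and 54.01 to 104 CPM (0.86 ± 0.28). Ly6e, a surface antigen induced by interferon, had the opposite order at 2804 to 2988 and 3537 to 3623 CPM (-0.30 ± 0.10).

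The TGF-beta pathway, which supports Foxp3 in peripheral Treg cells, had 17 members, 11 positive and 6 negative, with 0 calls and a median of 0.16. Without single libraries that median ran from 0.04, without animal control 142114, to 0.12. Members with groups that did not overlap lay in both directions. Tgif1, a corepressor of SMAD proteins, was at 48.8, 34.5 and 42.5 CPM in the genetic and 81.7, 114 and 83.6 CPM in the animal controls (-1.15 ± 0.28, limma, adjusted p = 0.36). Skil, another SMAD corepressor, was at 207, 139 and 203 CPM in genetic and 57.5, 104 and 110.5 CPM in animal controls (1.05 ± 0.27, limma, adjusted p = 0.394). Tgfbr3, a TGF-beta co-receptor, was at 24.04 to 73.5 and 8.68 to 22.2 CPM (1.91 ± 0.55), and Smad4, the shared SMAD, at 158 to 225 and 101 to 148 CPM (0.58 ± 0.20).

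Metabolic and growth genes held no call. Oxidative phosphorylation genes had 39 of 40 intervals within 1 in either direction and a median of -0.04. Glycolysis and glucose transport had 22 members and a median of -0.09, with named members in both directions. Pfkp, a phosphofructokinase, was at 131 to 158 CPM in the genetic and 185 to 275 CPM in the animal controls (-0.71 ± 0.20). Pdk1, a pyruvate dehydrogenase kinase, was at 250.1 to 329.9 and 108 to 234 CPM (0.83 ± 0.28). Cholesterol synthesis and uptake had 23 members and a median of 0.08. Over the alternative settings it ran from 6.67e-04 to 0.28, the latter without genetic control 124. Sqle, an enzyme of sterol synthesis, was at 38.95 to 62.8 and 17.7 to 25.8 CPM (1.19 ± 0.40). Cell cycle and mitosis genes had 16 members at or above the floor of 44 measured, 11 positive and 5 negative, with a median of 0.42. Without single libraries that median ran from 0.12, without genetic control 8619, to 0.59, without animal control 432614. Mcm2, a helicase subunit of DNA replication, was at 166, 147 and 139 CPM in the genetic and 42.1, 128 and 58.7 CPM in the animal controls (1.14 ± 0.36, limma, adjusted p = 0.561).

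The other lists had 0 calls as well. Medians were -0.10 for 15 co-inhibitory and CD28-family receptors, -0.04 for 16 TNF receptor family genes, 0.06 for 27 chemokine receptors, integrins and homing genes, 0.01 for 22 BCL-2 family and apoptosis genes, -0.03 for 25 heat shock and unfolded protein response genes, 0.04 for 10 helper effector cytokines and regulators, -0.08 for 74 cytosolic ribosomal proteins and 0.63 for 3 Ly6 surface antigens. Without single libraries each of these medians changed sign at least once, apart from that of the Ly6 antigens, which ran from 0.49 to 0.73. Of the ribosomal protein genes, 59 had a negative and 15 a positive difference, and 72 intervals lay within 1 in either direction.

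**Figure D4:**
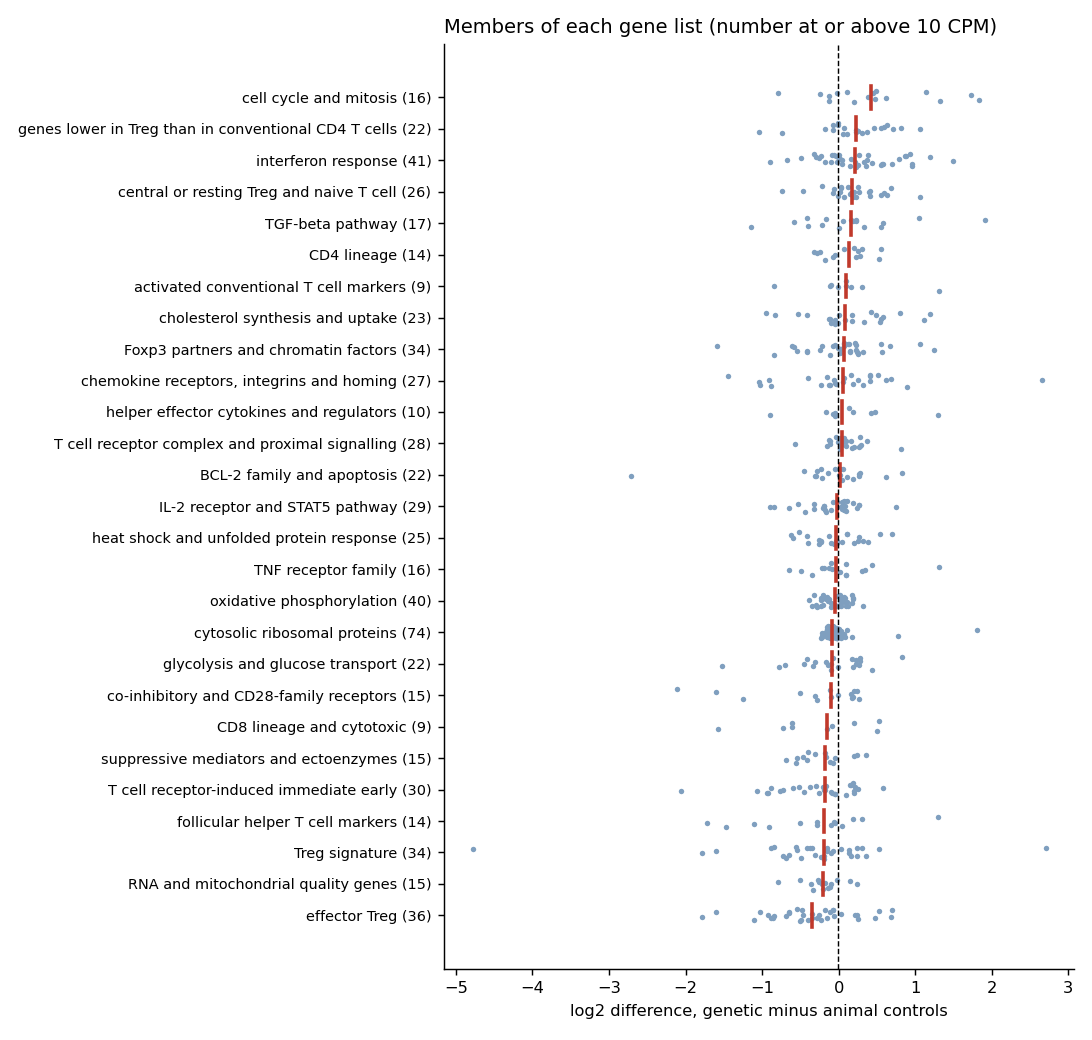
Log2 difference (genetic minus animal controls, x axis) of each member at or above 10 CPM (blue points) for the 27 gene lists with at least 9 such members, with the list median (red bar) and the median over all genes (dashed line). Medians run from -0.35 (effector Treg) to 0.42 (cell cycle and mitosis, 0.12 without genetic control 8619), and the point at -4.78 is Foxp3.

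Markers of other cell types differed in part with the kind of control. B cells carry MHCII, which both gates excluded. The summed level of 16 measured B cell markers was 711 to 1292 CPM in the genetic controls, 1348 to 1943 CPM in the animal controls and 702 to 1064 CPM in the deficient cells, and the control groups did not overlap. Most of it was Ighm, the immunoglobulin mu heavy chain, at 759, 1088 and 667 CPM in the genetic and 1217, 1307 and 1770.01 CPM in the animal controls (-0.78 ± 0.20, limma, adjusted p = 0.394). Cd79b, a signalling chain of the B cell receptor, was at 18.1, 12.6 and 22.5 CPM in genetic and 65.2, 74.3 and 39.6 CPM in animal controls (-1.74 ± 0.38, limma, adjusted p = 0.238). Its 50.8, 44.99 and 67.1 CPM in the deficient cells overlapped the animal controls and lay above every genetic control, whereas Ighm in the deficient cells, at 629, 857 and 788 CPM, lay under every animal control. Igkc, the last of the 3 B cell markers at or above the floor, overlapped and varied widely. It was at 0.959, 170 and 3.46 CPM in genetic and 16.3, 72.1 and 43.1 CPM in animal controls (-2.16 ± 2.79). Ebf1, a defining factor of B cells, was at or near the lowest value of the table in the genetic controls, at 0.00457 to 0.0357 CPM, and at 0.00789 to 7.74 CPM in the animal controls. Single values of Ms4a1 and Pax5, which are also on the B cell list, are not reported here. In bulk libraries, fewer cells of a type and less RNA per cell cannot be told apart.

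MHC class II genes, by which B cells and dendritic cells present antigen, summed to 213 to 407 CPM over 8 measured genes in the genetic and 433 to 449 CPM in the animal controls, again without overlap. Cd74, their invariant chain, was at 86.98, 199.96 and 145 CPM in genetic and 234, 242 and 272 CPM in animal controls (-0.87 ± 0.48). Of the 4 class II genes at or above the floor, 2 differences were negative, Cd74 and H2-Ob (-0.76), and 2 were positive, H2-Oa (0.34) and H2-DMa (0.07), with 0 calls. Gamma-delta T cell markers summed to 58.2 to 73.03 and 132 to 165 CPM over 8 genes. Much of this was Maf, a factor that effector Treg and follicular T cells also express, at 34.5 to 50.8 and 77.1 to 124 CPM (-1.11 ± 0.75). Follicular helper T cell markers, 15 genes, summed to 1272 to 1325 and 1398 to 1584 CPM. Of the 14 at or above the floor, 4 differences were positive and 10 negative, with 0 calls. In 3 of the 14 all animal controls were higher, and in 1, Bcl6, all genetic controls were, beside 6.55% and 5.87% of all genes. Bcl6 was at 27.4 to 52.96 and 11.5 to 21.98 CPM (1.29 ± 0.45). Sums overlapped for myeloid and dendritic cell markers (679 to 1009 and 722 to 829 CPM, 15 genes), NK cell markers (17.4 to 74.4 and 24.9 to 30.7 CPM, 6 genes), plasma cell markers (299 to 492 and 319 to 431 CPM, 7 genes), erythroid and platelet markers (0.594 to 129.97 and 0.133 to 6.47 CPM, 9 genes) and activated conventional T cell markers (1352 to 1636 and 1462 to 1588 CPM, 12 genes). The 2 stromal and endothelial markers measured summed to 226 to 243 and 167 to 220.1 CPM without overlap. Nearly all of that sum was the single gene Pecam1 (0.28 ± 0.27, not called), and 13 listed markers were absent from the values. The part of all these cell type markers in the effector Treg and immediate early values was not tested.

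For Mtmr9 the deficient cells lay with the animal controls. Mtmr9 encodes a catalytically inactive partner of the myotubularin lipid phosphatases and lies at chr14:63519651-63543982 (GRCm38, minus strand). It was at 30.4, 27.5 and 19.2 CPM in genetic controls, 232, 357 and 165 CPM in animal controls and 229, 316 and 261 CPM in the deficient cells. Both kinds of library from the floxed mice, YFP+ and YFP-, thus lay above every genetic control. The difference between the controls was -3.24 ± 0.30 (limma, adjusted p = 0.00367), a 9.46-fold lower fitted level in the genetic controls, and the adjusted p was 0.122 when limma was fitted on the 6 control libraries alone. Xkr6, a gene of the XK-related family, lies close by at chr14:63606503-63820809. It was at or near the lowest value of the table in the genetic controls, at 0.0066 to 0.0188 CPM, and at 19.2, 24.1 and 25.9 CPM in the animal controls and 29.5, 10.3 and 26.7 CPM in the deficient cells (limma, adjusted p = 0.00388). Its mean over the 6 columns was under the floor. The call of Xkr6 was lost with a pseudocount of 1 CPM, which damps differences between very low values (limma, adjusted p = 0.0516), in the 6-library fit (0.303) and without animal control 432614 (0.0739). Of the 4 other genes within 1 Mb of Mtmr9 at or above the floor, 0 were called, and their median difference was 0.37.

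The other pair of calls, Gm8730 and Gm9625, are processed pseudogenes of Rplp0, the gene of the large-subunit ribosomal protein P0. A processed pseudogene is a copy of a messenger RNA inserted into the genome. The Rplp0 reading frame (954 bases, GENCODE M21 on GRCm38) was searched with blastn against the transcripts of the measured genes. This found 4 processed copies, with 98.7% identity for Gm8730, 97.4% for Gm9625, 97.2% for Gm14165 and 94.1% for Rplp0-ps1. A protein-coding gene, Gucd1, also matched, with 91.3% identity over 850 bases, and was not counted with the copies. Its control groups overlapped, at 27.7 to 65.7 and 24.2 to 55.9 CPM (0.10 ± 1.42). At 7 of the 954 positions all 4 copies share a base that Rplp0 does not have: T72C, G138C, T192C, A390G, A393G, A696G and A784G, written as the Rplp0 base, the position counted from the A of the start codon, and the base of the copies. Bases 371 to 420 of the reading frame are shown because they hold a close pair of these differences and show how little separates a read of Rplp0 from a read of a copy. Capitals mark the positions that differ from Rplp0 and the Rplp0 bases at the shared differences.
Rplp0: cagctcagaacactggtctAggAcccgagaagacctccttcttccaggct
Gm8730: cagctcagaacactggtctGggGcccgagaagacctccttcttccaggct
Gm9625: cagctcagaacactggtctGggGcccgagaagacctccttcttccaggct
Gm14165: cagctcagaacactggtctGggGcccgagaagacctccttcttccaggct
Rplp0-ps1: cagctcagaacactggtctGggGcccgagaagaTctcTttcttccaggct

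Within this stretch Gm8730, Gm9625 and Gm14165 are identical to each other, and a read confined to it could not be assigned to 1 of them. The expression values of the copies are therefore uncertain as values of single genes, and these sources do not give how reads that match several genes were counted. Gm8730 (chr8:102864845-102865798) was at 14.1, 17.5 and 18.9 CPM in genetic controls, 309, 592 and 565 CPM in animal controls and 289, 601 and 638 CPM in the deficient cells (-4.81 ± 0.35, limma, adjusted p = 6.16e-04). Gm9625 (chr13:67810246-67811200) was at 2.92, 3.61 and 4.87 CPM, 104, 215 and 210.4 CPM and 106, 219 and 247 CPM in the same order (-5.49 ± 0.43, limma, adjusted p = 9.37e-04). Gm9625 reached the floor through the animal controls alone. In both copies, every library of the floxed mice lay above every genetic control, and mouse 142114 was the lowest of the 3 in its YFP+ and in its YFP- library.

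The copies under the floor had the same order. Gm14165 (chr2:152353615-152354566) was at 0.805, 1.65 and 2.03 CPM in genetic controls, 17.6, 38.5 and 33.4 CPM in animal controls and 18.3, 36.3 and 42.4 CPM in the deficient cells (limma, adjusted p = 0.0718). Rplp0-ps1 (chr3:93278141-93279073) was at 0.0374 to 0.428 CPM in genetic controls, 6.03, 14.7 and 12.1 CPM in animal controls and 6.87, 14.2 and 14.7 CPM in the deficient cells (limma, adjusted p = 0.169). Neither was called.

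Rplp0 itself (chr5:115559467-115563727) lay the other way. It was at 4052, 3803 and 4052 CPM in genetic controls, 3120.4, 2012 and 2012 CPM in animal controls and 2899.6, 2198 and 2289.9 CPM in the deficient cells. The control groups did not overlap, and the difference of 0.77 ± 0.16 was not called (limma, adjusted p = 0.232), though it was called without animal control 142114 (0.98, limma, adjusted p = 0.0315). As a share of the summed CPM of Rplp0 and its 4 copies, the copies made up 0.440% to 0.635% in the genetic controls. They made up 12.3%, 29.9% and 29.0% in the animal controls and 12.6%, 28.4% and 29.1% in the deficient cells of mice 142114, 232614 and 432614. Mouse 142114 thus had the lowest share in both of its libraries. The shares of mice 232614 and 432614, from 28.4% to 29.9%, were as alike between these mice as within each. The sum of Rplp0 and its copies was 3826 to 4078 CPM in genetic controls, 2834 to 3557 CPM in the animal controls and 3069 to 3319 CPM in the deficient cells.

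A like order was seen for Tdg, the gene of a thymine DNA glycosylase, and its processed copy. The pair was picked after values were seen. Gm9855 (chr10:42054113-42055306) matches the Tdg reading frame over 1194 bases with 99.2% identity and 9 differences. It was at or near the lowest value of the table in the genetic controls (0.00457 to 0.0357 CPM), at 8.67, 7.15 and 4.31 CPM in the animal controls and at 7.51, 7.42 and 8.81 CPM in the deficient cells (limma, adjusted p = 0.0718). Tdg (chr10:82629828-82650799) was at 31.6, 26.3 and 17.96 CPM in genetic controls, 9.95, 9.76 and 5.69 CPM in animal controls and 7.74, 9.57 and 13.3 CPM in the deficient cells (1.58 ± 0.53, limma, adjusted p = 0.618). The control groups of both genes did not overlap, in opposite directions, and neither was called. Tdg reached the floor through the genetic controls alone, with a mean of 8.46 CPM in the animal controls.

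**Figure D5:**
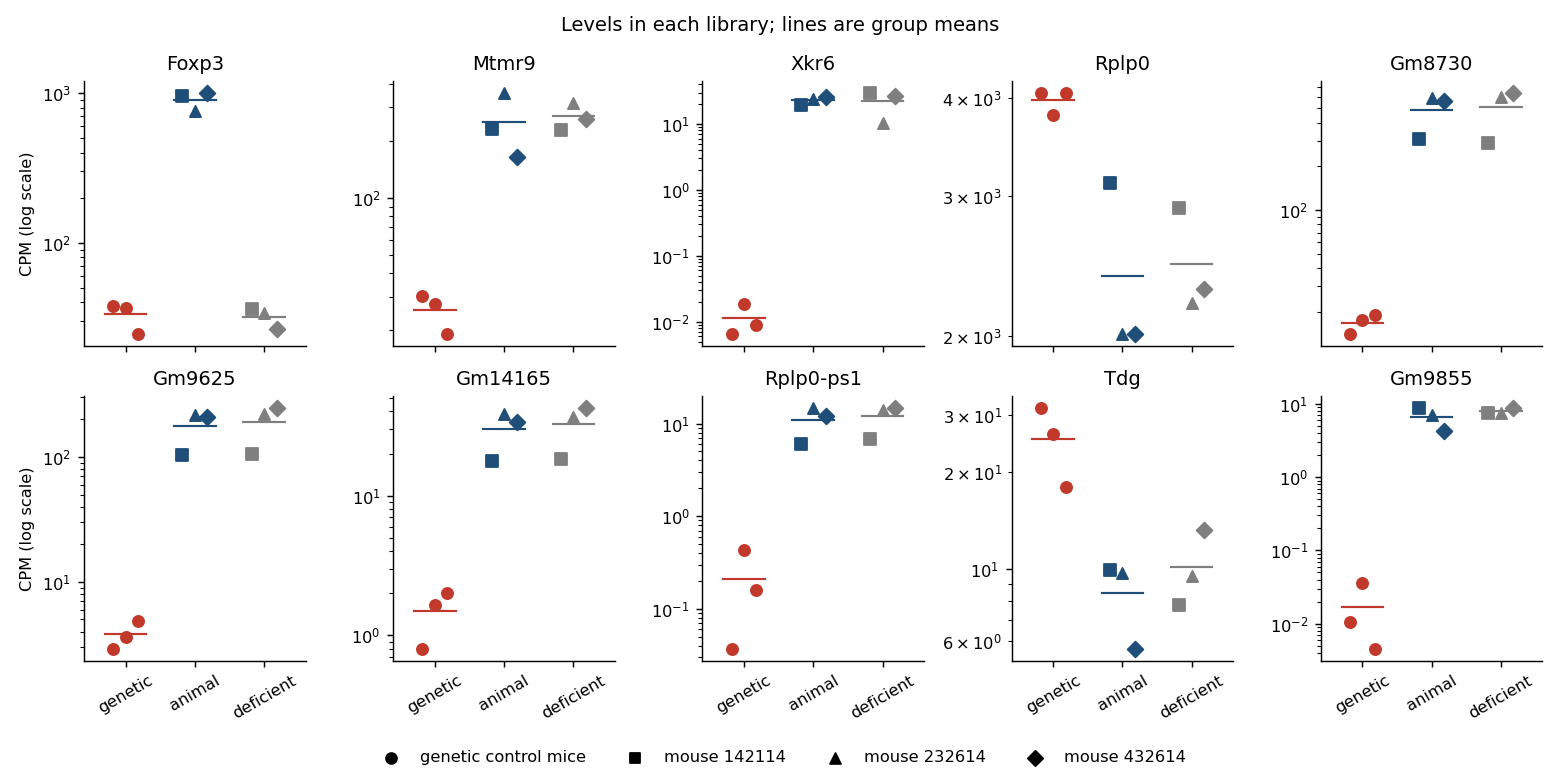
Level in CPM (log scale, a separate axis for each gene) of 10 genes in each of the 9 libraries, with group means as lines and the mouse of the floxed libraries shown by the symbol. Foxp3 is low in genetic control and deficient cells, while Mtmr9, Xkr6, Gm8730, Gm9625, Gm14165, Rplp0-ps1 and Gm9855 lie lower in the 3 genetic controls than in all others, and Rplp0 and Tdg are higher there.

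Of the genes at or above the floor that were not called, Yam1 had the lowest p among those higher in the genetic controls. It was at 3623, 4052 and 4363 CPM in genetic controls, 2042, 2198 and 1930.3 CPM in animal controls and 4363, 4670.3 and 3156 CPM in the deficient cells, so that all YFP+ libraries lay above all YFP- ones. The difference of 0.96 ± 0.13 had an adjusted p of 0.0718 (limma), and it was called when only the 7635 genes were fitted (adjusted p = 0.0151) and without deficient library 432614 (adjusted p = 0.00293). Mitochondrial mt-Rnr1, the small ribosomal RNA of mitochondria, was at 2116, 2749 and 3156 CPM in genetic and 1594, 1707 and 1547 CPM in animal controls (0.71 ± 0.14, limma, adjusted p = 0.217). The 15 RNA and mitochondrial quality genes had a median of -0.21 and 0 calls, with mt-Nd1, a subunit of complex I, at 2249.5 to 3537 and 3419 to 4052 CPM (-0.36 ± 0.14).

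Pttg1, securin, which holds sister chromatids together until anaphase, was at 43.9, 52.99 and 41.6 CPM in genetic controls, 10.3, 9.87 and 5.68 CPM in animal controls and 8.30, 8.54 and 16.7 CPM in the deficient cells (2.46 ± 0.49, limma, adjusted p = 0.217). The deficient cells lay with the animal controls of the same mice, apart from the genetic controls. Trpm1, a cation channel gene, was at 31.4 to 37.6 and 12.8 to 15.2 CPM (1.23 ± 0.28) and Nab1, a corepressor of EGR factors, at 170.2 to 195 and 82.3 to 107 CPM (0.98 ± 0.21). Zfp148 (0.88 ± 0.19), Wdr44 (1.97 ± 0.46) and Vkorc1l1 (2.66 ± 0.63) were also named by rule in this direction, with limma adjusted p from 0.232 to 0.336. Pttg1 and Vkorc1l1 reached the floor through the genetic controls alone, with means of 8.60 and 5.47 CPM in the animal controls.

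In the other direction, Rab35, a small GTPase of membrane recycling, was at 21.9, 40.7 and 33.3 CPM in the genetic and 112, 131 and 149 CPM in the animal controls (-2.07 ± 0.34, limma, adjusted p = 0.114). Cd81, a tetraspanin, was at 237, 200.2 and 216 CPM in genetic controls, 341, 395 and 342 CPM in animal controls and 592, 680.4 and 635 CPM in the deficient cells (-0.72 ± 0.12, limma, adjusted p = 0.117). Wdr74 and Krr1, which act in ribosome assembly, were at 7.998 to 26.3 and 12.6 to 26.5 CPM in the genetic and 56.3 to 71.4 and 48.95 to 69.6 CPM in the animal controls. Their differences were -2.04 ± 0.42 and -1.84 ± 0.37. Pnpla7 (-1.32 ± 0.28), Pacsin1 (-1.03 ± 0.23) and Clic4 (-1.26 ± 0.29) had limma adjusted p from 0.232 to 0.306. The naming rule took only genes whose groups did not overlap, so the lack of overlap in all of these was set in advance. Of all genes at or above the floor, 12.4% did not overlap.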

How the data were processed

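The table of 9 RNA-seq libraries holds log2 values that the authors normalized before they deposited it. Per the labels' protocols, RNA was extracted with the RNeasy plus micro kit and libraries with a SMARTer low-input kit (template switching) and Nextera XT. Per the submitters' processing notes, bcl2fastq 1.8.4, STAR 2.4.0h, mm10 and limma were used. Not given in the sources used here are the counting tool, annotation, strand setting and normalization. The unit was read from the deposited values: linear values sum to 999252 to 999256 in each library, and the lowest (-7.77) and highest (13.42) log2 value are the same in all, as after quantile normalization of log2 CPM. The lowest value held 8.00% to 11.4% of the genes of a library. Without read counts the depth is unknown.

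Of 13702 rows, 4 exact duplicates were dropped, leaving 13698 genes, of which 97.3% were matched to coordinates (GENCODE M21, GRCm38, or RefSeq names). limma 3.58.1 in R 4.3.3 (trend, 2-sided, group means of all 9 libraries, no pseudocount) was fitted on the whole table, contrast genetic minus animal control, with Benjamini-Hochberg adjustment over all 13698 genes and an FDR under 0.05. Calls were counted among the 7635 genes with a mean of at least log2(10). Intervals are 95%, from the moderated statistic. The deficient libraries enter through the shared spread, and their levels are described without a test, since comparisons with them share libraries. Copies were searched with blastn 2.17.0 (at least 90% identity over at least 50% of the reading frame). The fit was tested on simulated data.

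Deficient and animal control libraries with the same number come from the same mouse, per the series design text. Their deviations from the group means correlated at 0.0385, -0.00241 and 0.0127 for mice 142114, 232614 and 432614. No number is shared by the 2 kinds of control. The members and the 36 gene lists were chosen with earlier results of these data known. Named genes were 11 Treg and lineage genes, up to 12 called genes a direction without overlap (predicted genes, Rik clones and receptor segments left out), filled with the lowest p, up to 4 genes of a list by adjusted p, and up to 5 a direction under the floor. Some genes named by this rule are not reported here. Alternatives were other samples, floors, variance priors, a pseudocount of 1 CPM, median centring, a mouse block and leaving out each library.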

Additional observations from a re-analysis of the deposited data

How the results depend on the processing

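The count of genes called in either direction, 4, lay between 3 and 5 under every alternative. It was 3 with the 6 control libraries alone, where Mtmr9 was lost (adjusted p = 0.122), and with a floor of 30 CPM, and 5 with no floor and where 1 gene was called higher. The count called higher, 0, became 1 in the fit of the 7635 genes only, which adjusts over fewer genes (Yam1), and lay between 0 and 1 over the fits without 1 library (Rplp0 without animal control 142114, Yam1 without deficient library 432614). Foxp3, Gm8730 and Gm9625 were called in every refit, with adjusted p of at most 0.00322, 0.0132 and 0.0339, though Gm9625 lies under the floor of 30 CPM. With the mouse as a replicate block (consensus correlation 0.0493) the count was 4, the same 4 genes, and the block changed no other call. A fixed mouse term cannot be estimated, since no mouse is in both groups. Cd4 changed sign without 1 library, with differences from -0.19 to 0.11, and was not called in any fit. Of the copies under the floor, limma without the trend called Gm14165 (adjusted p = 0.0340) and Gm9855 (0.00414); the cause was not tested. List medians moved by more than their spread in 5 of 280 alternatives, among them heat shock and unfolded protein response genes (-0.13 without animal control 432614). Median centring left the median difference at -0.01. For genes between 10 and 100 CPM a median standard error of 0.47 limits what could be called.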
